A study of Mus musculus with 2 samples.

Results

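The DNA replication machinery was followed here through 48 genes whose products license replication origins, unwind the duplex, copy both strands and seal the copies. Members were taken by symbol from a given list, and no measured value enters the rule. Each of the 48 symbols had 1 row among the 41214 genes of the deposited table, and all 48 reached 100 normalized reads in at least 1 library, the floor used here, as did 10443 genes. By role they comprised 9 origin licensing genes, 2 firing kinase genes, 12 genes of the replicative helicase and its partner Mcm10, 9 polymerase and primase genes, 6 clamp and clamp loader genes, and 10 genes for strand binding, flap removal, ligation, nucleotide supply and fork protection.

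Replication starts in G1, when the origin recognition complex, Cdc6 and Cdt1 load the Mcm2 to Mcm7 ring onto DNA as an inactive helicase. In S phase the kinase Cdc7 with Dbf4 phosphorylates the ring, Cdc45 and the GINS complex join it to form the active CMG helicase, and polymerases alpha, delta and epsilon copy the strands with the sliding clamp PCNA. Germinal centre B cells are among the fastest dividing cells of an adult mammal, and most of these genes are transcribed as cells enter S phase, many of them under E2F factors.

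The cells came from C57BL/6 mice immunized intravenously with 1000000000 sheep red blood cells. Spleens were taken on day 10, and B220+ Fas+ GL7+ cells lacking CD138 were sorted as germinal centre B cells. The study compared mice labelled Cbl-/-Cblb-/-, a genotype lacking both of these E3 ubiquitin ligase genes, with wild type mice, and asked how RNA expression differs between them. The sources used here do not give how the deletions were made, how many mice stand behind each library, or their age. Each group held 1 library, so nothing below carries a test or a replicate check, and whether a difference exceeds the spread between mice is unknown. Pairs of values are given in the order Cbl-/-Cblb-/- then wild type, and higher or lower refers to the library so labelled relative to its wild type counterpart. The 2 libraries held 38223328 and 26749540 reads assigned to genes.

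The labels were not borne out by the targeted genes. Cbl had 1183 and 169 normalized reads and Cblb 2839 and 1001, so both were higher in the library labelled as lacking them. Adjusted for length as described below, their log2 ratios were 2.34 and 0.76. Reads over a whole gene include exons that a deletion may leave in place. Neither this nor the assignment of labels to libraries was tested, and directions below are therefore between labelled libraries and not between genotypes. Of the cell type markers, all 6 B cell genes were detected in both (summed 202063 and 377790 normalized reads), as were all 7 germinal centre genes (118292 and 79645). Among the latter, the proliferation marker Mki67 had 55699 and 31696 normalized reads, a log2 ratio of 0.81. It is a long gene of 10075 bases, and adjusted for length as described below its log2 ratio was -0.58. Markers of other cells summed to 26.6 and 55.8 over 6 T cell genes, of which 1 was at 0 in the library labelled wild type, 1155 and 1702 over 6 macrophage genes with none at 0, and 31.5 and 94.4 over 5 erythroid genes, of which 1 was at 0 in that same library. Hepatocyte genes, 4 in number, summed to 0.699 and 4.29 with 3 at 0 in each library. Plasma cell genes summed to 29623 and 26443 over 6 and naive follicular genes to 11352 and 9326.5 over the 5 that had a row, again with none at 0. The part of other cell types in the values below was not tested, and in bulk RNA fewer cells of a type and less RNA per cell cannot be told apart.

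Replication genes went both ways between the libraries. At a threshold of 1.5-fold, 16 of the 48 members (33.3%) were higher and 13 (27.1%) lower, while 19 stayed within it. Among all 10443 genes over the floor 38.6% were higher and 31.9% lower, so both shares lay below the background. The median log2 ratio of the members was 0.21 and that of all genes 0.15. Scaling to total reads would add 0.52 to each log2 ratio, which gives 26 members higher and 5 lower where 52.1% and 21.0% of all genes are, and turns the sign of Gmnn, Mcm7, Gins3, Pola2, Pold3, Rpa1 and Rpa3. Values below keep the authors' size factors. The members were spread less widely than genes at large, with quartiles of -0.62 and 0.61 and a standard deviation of 0.95 across members, against 1.53 across all genes. Members were abundant, with median FPKM (the level per length, scaled to library size) of 26.0 and 35.5 where all genes over the floor had 9.33 and 7.80. Counting error is small at these depths: the 95% interval of the read ratio left out 1 for 47 of 48 members, the exception being Gmnn. The interval covers counting error only and takes the authors' size factors as fixed. The matching share of all genes is not given here, so the count describes depth and not the members.

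**Figure D1:**
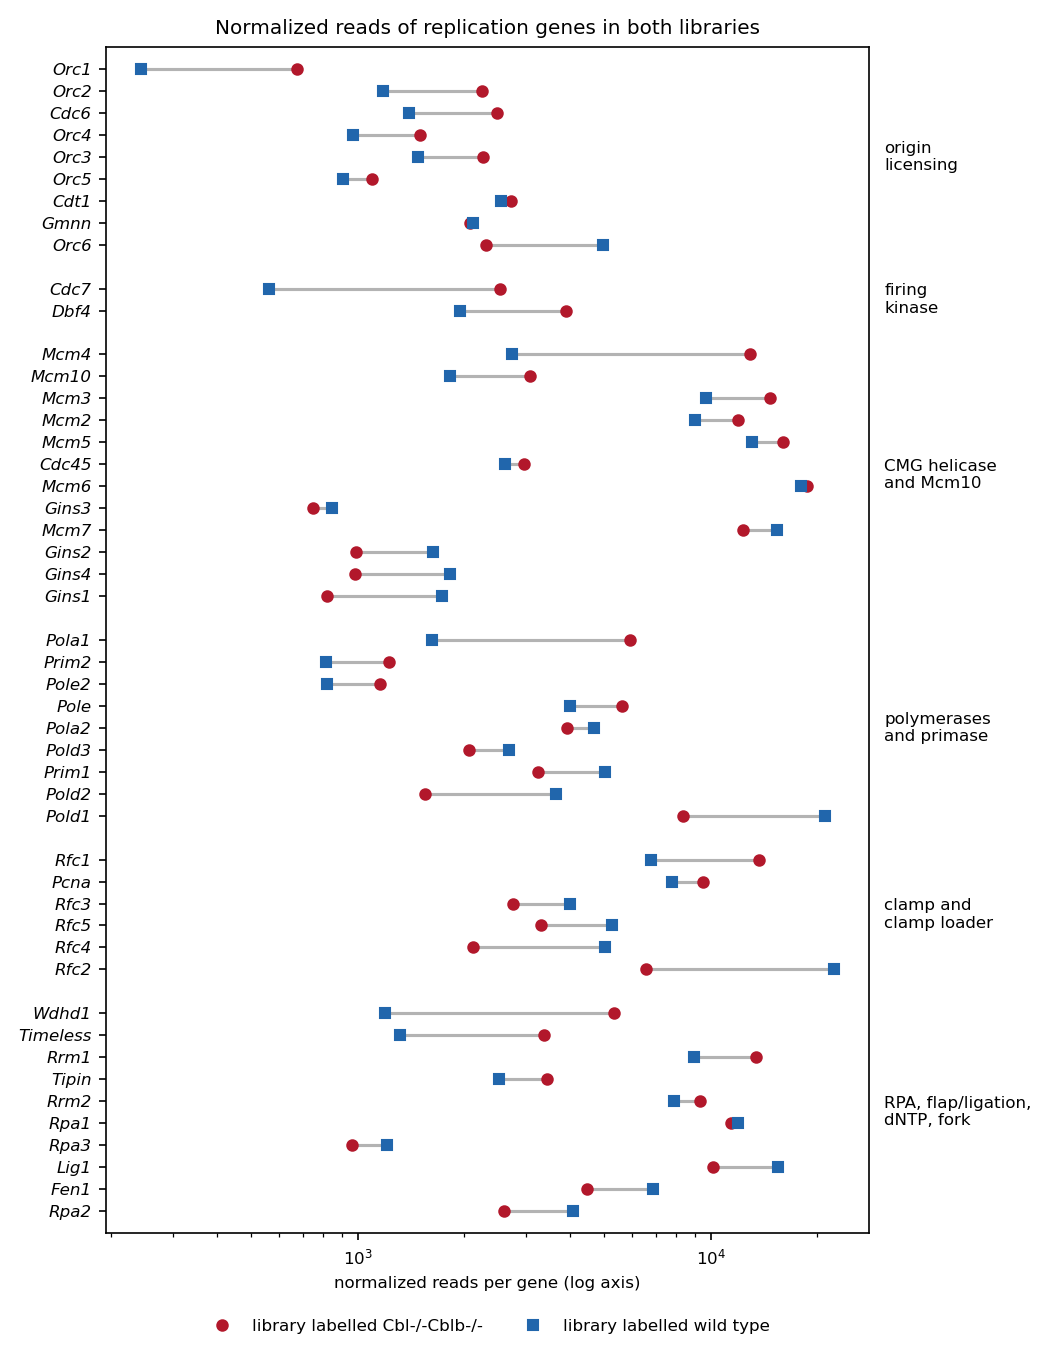
Normalized reads of each of the 48 replication genes on a log axis, with a circle for the library labelled Cbl-/-Cblb-/- and a square for the library labelled wild type, grouped by role and ordered within a group by their ratio. The longest lines belong to Mcm4, Cdc7 and Wdhd1, with the circle to the right, and among genes with the square to the right the longest is that of Rfc2.

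The ratio between these libraries follows gene length, which touches every comparison of members. Across the 48 members the log2 ratio correlated with log2 length with Pearson's r of 0.52 (Spearman's rho 0.51), against 0.46 (0.54) across the 10443 genes. These are descriptions across genes that share both libraries. Of the 16 shortest members, 1136 to 2771 bases long, 0 were higher and 7 lower. Among the 16 of 2825 to 4268 bases 6 were higher and 4 lower, and among the 16 of 4426 to 11160 bases 10 were higher and 2 lower. All genes in those 3 length ranges had median log2 ratios of -0.71, 0.16 and 0.86, and the members -0.25, 0.28 and 0.62. Ratios below are therefore given with a length-adjusted value, the distance from a curve fitted to all genes over the floor on log2 length. After that adjustment 11 members were at least 1.5-fold higher and 12 lower, where 28.7% and 33.5% of all genes were, and the median was 0.04 against -0.07. Of the 29 members past 1.5-fold before adjustment, 14 remained so in the same direction. The matching share of all genes is not given here, so this count says nothing particular to the members. With GC content and gene model extension also in the fit, called the fuller fit below, 9 members were higher and 15 lower where 26.2% and 30.5% of all genes were. The median turned to -0.24, against -0.06 for all genes.

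**Figure D2:**
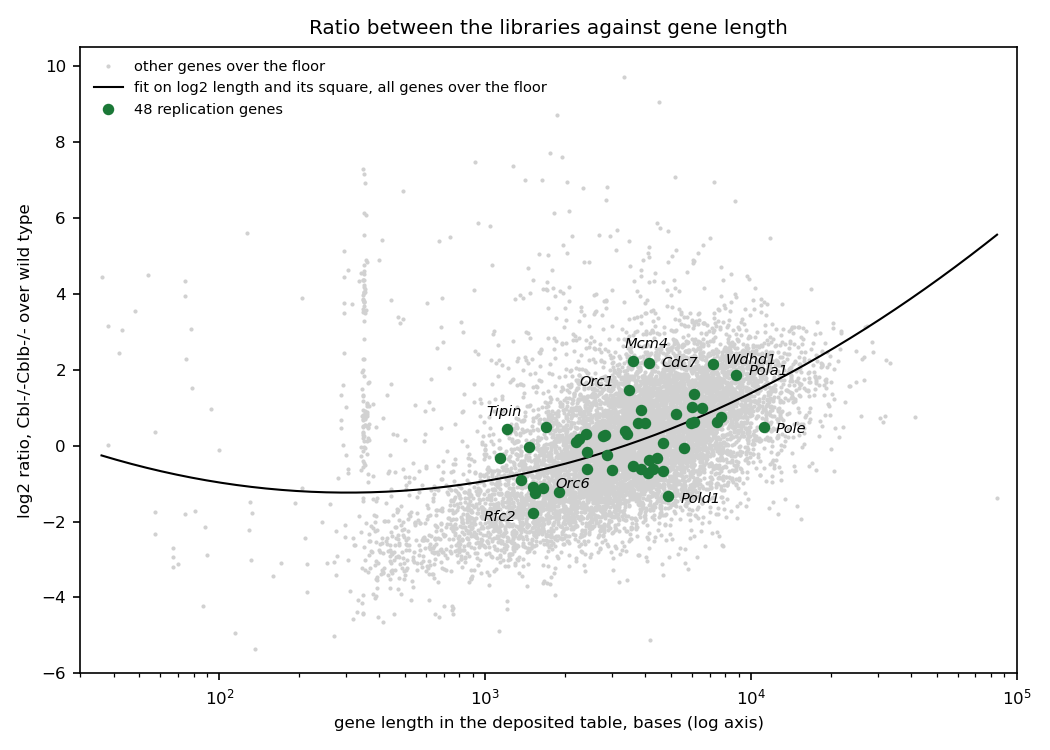
Log2 ratio between the libraries against gene length on a log axis, with the 48 replication genes as large points, the other genes over the floor as small points and the fitted curve as a line. Mcm4, Cdc7 and Orc1 stand above the curve at middle lengths, Tipin above it among short genes, and Pold1 and Pole below it.

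Of the 9 origin licensing genes, Orc1, Orc2, Orc3, Orc4 and Cdc6 were at least 1.5-fold higher and Orc6 was lower. That is 5 and 1 of 9, where 38.6% and 31.9% of all genes were, and 3 and 0 after length adjustment, where 28.7% and 33.5% were. The median log2 ratio was 0.61 (length-adjusted 0.45). Orc1, an ATPase subunit of the complex, had the fewest reads of all members, 960 and 170, or 671 and 243 normalized reads. It was 2.76-fold higher (2.34 to 3.27), a log2 ratio of 1.46 that the length adjustment left at 1.42. In GENCODE M21 on GRCm38, the source of all gene positions here, it is ENSMUSG00000028587, chromosome 4, 108579423 to 108614833 on the plus strand. Orc2, a core subunit, had 2257 and 1177 normalized reads and was 1.92-fold higher (1.78 to 2.07). Its adjusted log2 ratio was 0.79, so Orc1 and Orc2 stayed past 1.5-fold, but in the fuller fit Orc2 came inside it at 0.49 while Orc1 stood at 1.25.

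Orc3 (2261 and 1482 normalized reads) and Orc4 (1498 and 969), both long genes, stood at log2 ratios of 0.61 and 0.63. Both turned negative after length adjustment (-0.08 and -0.33). Orc5, another core subunit, was near level at 1098 and 908 normalized reads, with a ratio of 1.21 (1.10 to 1.33). Orc6, the small subunit that sits loosely on the complex, went the other way with 2302 and 4956 normalized reads and was 2.15-fold lower (2.05 to 2.26). Its log2 ratio of -1.11 was -0.48 after adjustment. Exons of Vps35 on the opposite strand overlap Orc6 (ENSMUSG00000031697, chromosome 8, 85299632 to 85308278 on the plus strand), and Vps35 itself had 4688 and 1313 normalized reads. In all, 18 of the 48 members share exonic positions with another annotated gene. Whether the counting used strand is not known here, so reads in the overlap are uncertain in origin.

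Cdc6, the ATPase that recruits the helicase ring to the origin complex, had 2476 and 1401 normalized reads and was 1.77-fold higher (1.65 to 1.90), a log2 ratio of 0.82 that came down to 0.32. Cdt1, which delivers the ring, and Gmnn, which encodes its inhibitor geminin, differed little. Cdt1 had 2727 and 2548 normalized reads, with a ratio of 1.07 (1.01 to 1.13). Gmnn had 2081 and 2116 and a ratio of 0.983 (0.924 to 1.05), the only member interval that held 1. Both are short genes whose length-adjusted log2 ratios were positive, 0.50 for Cdt1 and 0.68 for Gmnn. By FPKM, which follows the authors' size factors, the licensing factor and its inhibitor were near level. Cdt1 had 38.3 and 35.8 FPKM and Gmnn 43.7 and 44.5. Total-read scaling gave log2 ratios of 0.62 for Cdt1 and 0.49 for Gmnn, and the fuller fit 0.99 and 0.65.

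Both subunits of the firing kinase were higher. Cdc7, the catalytic subunit, is annotated as ENSMUSG00000029283, chromosome 5, 106964322 to 106984432 on the plus strand. Its reads numbered 3627 and 391, which normalize to 2535 and 559. It was 4.53-fold higher (4.08 to 5.04), at percentile 92.4 of all genes over the floor, and at percentile 94.2 after length adjustment. Its log2 ratio of 2.18 became 1.96 with length in the fit and 1.63 in the fuller fit. Dbf4, the regulatory subunit, had 3890.5 and 1951 normalized reads and was 1.99-fold higher (1.88 to 2.12). As a long gene (6571 bases) it was left with an adjusted log2 ratio of 0.21. Levels per length were 18.9 FPKM for Cdc7 and 18.2 for Dbf4 in the library labelled Cbl-/-Cblb-/-, and 4.17 and 9.14 in the other, so in the latter the kinase subunit lay below its activator.

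Within the helicase ring, Mcm4 stood apart from the other 5 subunits. Mcm4 is annotated as ENSMUSG00000022673, chromosome 16, 15623897 to 15637400 on the minus strand. Its reads numbered 18438 and 1913, or 12888 and 2737 after normalization. It was 4.71-fold higher (4.49 to 4.94), the highest ratio of all 48 members, and its log2 ratio of 2.23 was 2.17 after length adjustment and 1.92 in the fuller fit. The lengths of the 6 genes run from 3370 to 4666 bases with Mcm4 at 3589, so its length lies within their range. No exon of another gene overlaps Mcm4 in the annotation.

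The remaining subunits lay between -0.32 and 0.60 on the log2 scale. Mcm3 had 14699.5 and 9687 normalized reads and Mcm2 11913 and 9053, with Mcm3 just past the threshold and Mcm2 inside it, at ratios of 1.52 (1.48 to 1.56) and 1.32 (1.28 to 1.35). Mcm5 had 16059 and 13104 and a ratio of 1.23 (1.20 to 1.26), and Mcm6, which drew the most reads of any member in the library labelled Cbl-/-Cblb-/-, 18768 and 18009 and 1.04 (1.02 to 1.06). Mcm7 was on the other side of level, at 12365 and 15421 and 1.25-fold lower (1.22 to 1.28). After length adjustment Mcm7 stood at -0.62, past 1.5-fold, whereas Mcm2, Mcm3, Mcm5 and Mcm6 lay between -0.30 and 0.49. In the fuller fit Mcm7 came inside the threshold at -0.31 and Mcm3 passed it at 0.71. Exons of Ap4m1 and Cops6 overlap Mcm7 on the opposite strand, and Mir25 and Mir93 lie within it, so some of its reads are uncertain.

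Of the helicase activators, 3 of the 4 GINS genes were lower and Cdc45 was near level. But under total-read scaling Gins1 (-0.56), Gins2 (-0.21) and Gins4 (-0.38) all come inside 1.5-fold on the log2 scale. The replicative helicase genes with Mcm10 held 3 higher and 3 lower of 12, where 38.6% and 31.9% of all genes were. Both shares of that group thus lay below the background. After length adjustment 1 was higher and 2 lower, where 28.7% and 33.5% of all genes were. Cdc45 had 2952 and 2617 normalized reads, a ratio of 1.13 (1.07 to 1.19). Gins1 had 819 and 1735 normalized reads and was 2.12-fold lower (1.95 to 2.30), Gins2 had 986 and 1632 and was 1.66-fold lower (1.53 to 1.79), and Gins4 had 984 and 1829.8 and was 1.86-fold lower (1.72 to 2.01). Gins3 was within the threshold at 749 and 846, 1.13-fold lower (1.02 to 1.25). All 4 subunits of this complex, which links the ring to polymerase epsilon, thus had the lower value in the library labelled Cbl-/-Cblb-/- (Gins3 no longer under total-read scaling), but 3 of the 4 are short genes. Adjusted log2 ratios were -0.40 for Gins1, -0.94 for Gins2, 0.14 for Gins3 and -0.14 for Gins4, so Gins2 alone stayed past 1.5-fold, and Gse1 exons on the opposite strand overlap it. Mcm10, needed to activate the assembled helicase, had 3078 and 1826 normalized reads and was 1.69-fold higher (1.58 to 1.80). Being 7692 bases long, it turned to an adjusted log2 ratio of -0.25.

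**Figure D3:**
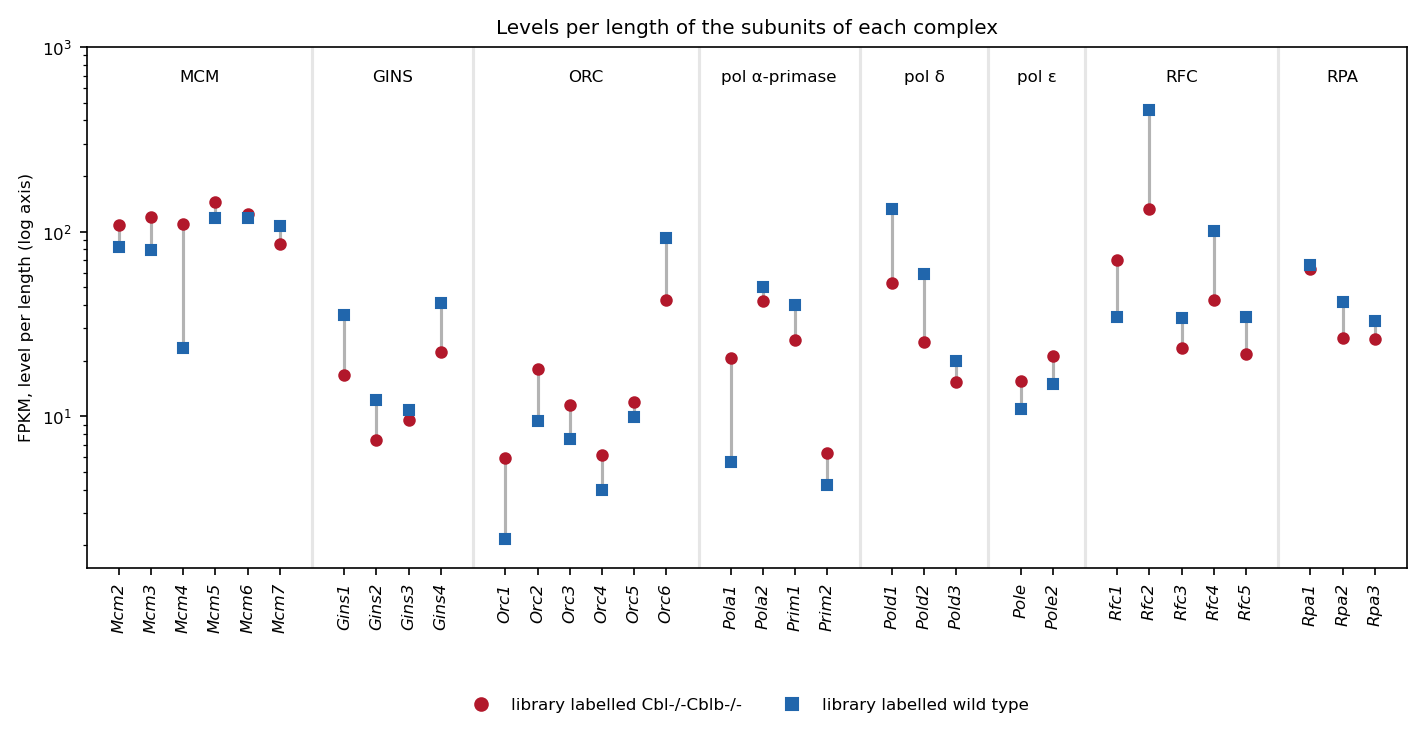
FPKM of each subunit on a log axis by complex, with circles for the library labelled Cbl-/-Cblb-/- and squares for the library labelled wild type. In the library labelled Cbl-/-Cblb-/- the 6 MCM genes lie between 86.0 and 144 FPKM, and in the other Mcm4 drops to 23.5 below the rest.

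Levels per length put this in terms of the complexes, whose subunits assemble in fixed ratios. The 6 ring genes ranged from 86.0 (Mcm7) to 144 FPKM (Mcm5) in the library labelled Cbl-/-Cblb-/-, a 1.68-fold span. In the library labelled wild type they ranged from 23.5 (Mcm4) to 119 (Mcm6), a 5.06-fold span that is 1.49-fold without Mcm4. Mcm4 was thus the subunit out of step, and in that library alone of the 2. ORC subunits spanned 7.22-fold and 42.9-fold, from Orc1 to Orc6 in both libraries, and without Orc6 the spans were 3.03-fold and 4.60-fold. RFC subunits spanned 6.10-fold and 13.3-fold, with Rfc2 on top in both. Polymerase epsilon was plotted by Pole and Pole2 only, which differed 1.36-fold and 1.35-fold. The enzyme's other subunit genes, Pole3 (22.5 and 43.3 FPKM) and Pole4 (26.9 and 42.4), are not members and lay above both in each library. Rrm1 and Rrm2 differed 1.003-fold and 1.26-fold. Of the 8 complexes plotted, by member genes only, MCM, ORC, polymerases alpha and delta, RFC and GINS had the wider span in the library labelled wild type. RPA had the narrower span there, as did polymerase epsilon over Pole and Pole2 alone. Over all members, log2 FPKM correlated between the libraries with r of 0.84 (48 genes, which share gene length on both axes).

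Polymerase and primase genes went both ways, with Pola1 and Prim2 higher and Prim1, Pold1 and Pold2 lower. These were 2 and 3 of 9 genes (22.2% and 33.3%, beside 38.6% and 31.9% of all genes), and the median log2 ratio was -0.26 (length-adjusted -0.60). Pola1, the catalytic subunit of the enzyme that starts every new strand, had 5921 and 1622 normalized reads and was 3.65-fold higher (3.43 to 3.89). It is a long gene of 8813 bases (ENSMUSG00000006678, chromosome X, 93304767 to 93632155 on the minus strand), and its log2 ratio of 1.87 came down to 0.67 with length and 0.32 in the fuller fit. Its partner Pola2 had 3914 and 4678 normalized reads and was 1.20-fold lower (1.14 to 1.25).

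The primase subunits, which lay the RNA primers, diverged. Prim1, the catalytic one, had 3249.5 and 5006 normalized reads and was 1.54-fold lower (1.47 to 1.61), whereas Prim2, the large subunit, had 1224 and 815 and was 1.5-fold higher (1.36 to 1.65). Prim2 lay on the threshold itself and turned to -0.07 on the log2 scale after length adjustment, while Prim1 stayed lower at -0.77. Under total-read scaling Prim1 came inside the threshold at -0.10. Pola1 and Prim2 were thus the higher pair and Pola2 and Prim1 the lower pair of this enzyme's 4 subunits, and the summed FPKM of all 4 was 94.8 and 99.9.

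Of polymerase delta, which copies the lagging strand, Pold1 and Pold2 were lower and Pold3 lay inside the threshold. Pold1 encodes the catalytic subunit (ENSMUSG00000038644, chromosome 7, 44532746 to 44548849 on the minus strand). Reads for it numbered 11921 and 14712, or 8332 and 21048 after normalization. It was 2.53-fold lower (2.47 to 2.59), and as a gene of 4860 bases it stood against the length trend. Its log2 ratio of -1.34 became -1.75, at percentile 6.88 of all genes and the lowest adjusted value among members, but -0.77 in the fuller fit. Pold2 had 1549.6 and 3641 normalized reads and was 2.35-fold lower (2.22 to 2.49), with an adjusted log2 ratio of -0.71, or -0.03 in the fuller fit. Pold3, the subunit that binds the clamp, had 2065 and 2678 and was 1.30-fold lower (1.22 to 1.37), a direction that total-read scaling turns, with an adjusted -0.60. The summed FPKM of the 3 was 93.3 and 212.

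Polymerase epsilon, the leading strand enzyme, leaned the other way in both member genes before adjustment. Its other subunit genes, Pole3 and Pole4, are not members and were lower. Pole3 had 1490 and 2867 normalized reads and Pole4 2189 and 3454, log2 ratios of -0.94 and -0.66 (length-adjusted -0.48 and -0.37). Pole had 5606 and 3986 normalized reads and Pole2 1160.3 and 819.8, with ratios of 1.41 (1.35 to 1.47) and 1.42 (1.29 to 1.56). Since Pole is the longest member (11160 bases) and Pole2 is short (1695 bases), the adjustment parted them. Pole went to -1.06 and Pole2 to 1.11 on the log2 scale.

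The clamp itself was near level, and 3 of the 5 subunits of its loader were lower. Pcna, which encodes the sliding clamp, had 9529 and 7748 normalized reads and a ratio of 1.23 (1.19 to 1.27), with an adjusted log2 ratio of 0.62. The group of 6 held 1 higher and 3 lower members, beside 38.6% and 31.9% of all genes, with a median of -0.61 (length-adjusted -0.59). Rfc2, a small loader subunit, is annotated as ENSMUSG00000023104, chromosome 5, 134581366 to 134601805 on the plus strand. Reads for it numbered 9384 and 15652, or 6559 and 22393 after normalization. It was 3.41-fold lower (3.33 to 3.50), the lowest ratio among members, with a log2 ratio of -1.77, -1.09 after length adjustment and -1.53 in the fuller fit. At 454 FPKM it was also the highest member by level in the library labelled wild type, where Rfc4, the next loader subunit, had 101. Lat2, a B cell adaptor gene on the opposite strand with 5761 and 8803 normalized reads, shares exonic sequence with Rfc2, and its part in these values was not tested.

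Rfc4 had 2122 and 5010.2 normalized reads and was 2.36-fold lower (2.25 to 2.48), and Rfc5 had 3307 and 5259 and was 1.59-fold lower (1.52 to 1.66). Rfc3 had 2748 and 4002, 1.46-fold lower (1.39 to 1.53), just inside the threshold. Under total-read scaling Rfc5 also came inside it, at a log2 ratio of -0.15. All 3 small subunits stayed negative after length adjustment, at -0.56, -1.03 and -0.62 on the log2 scale. Exons of Eif4a2 overlap Rfc4 and exons of Wsb2 overlap Rfc5, on the opposite strand. Rfc1, the large subunit and a gene of 6000 bases, was the exception with 13669.9 and 6754 normalized reads. It was 2.02-fold higher (1.96 to 2.09) and stood at 0.35 after adjustment.

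**Figure D4:**
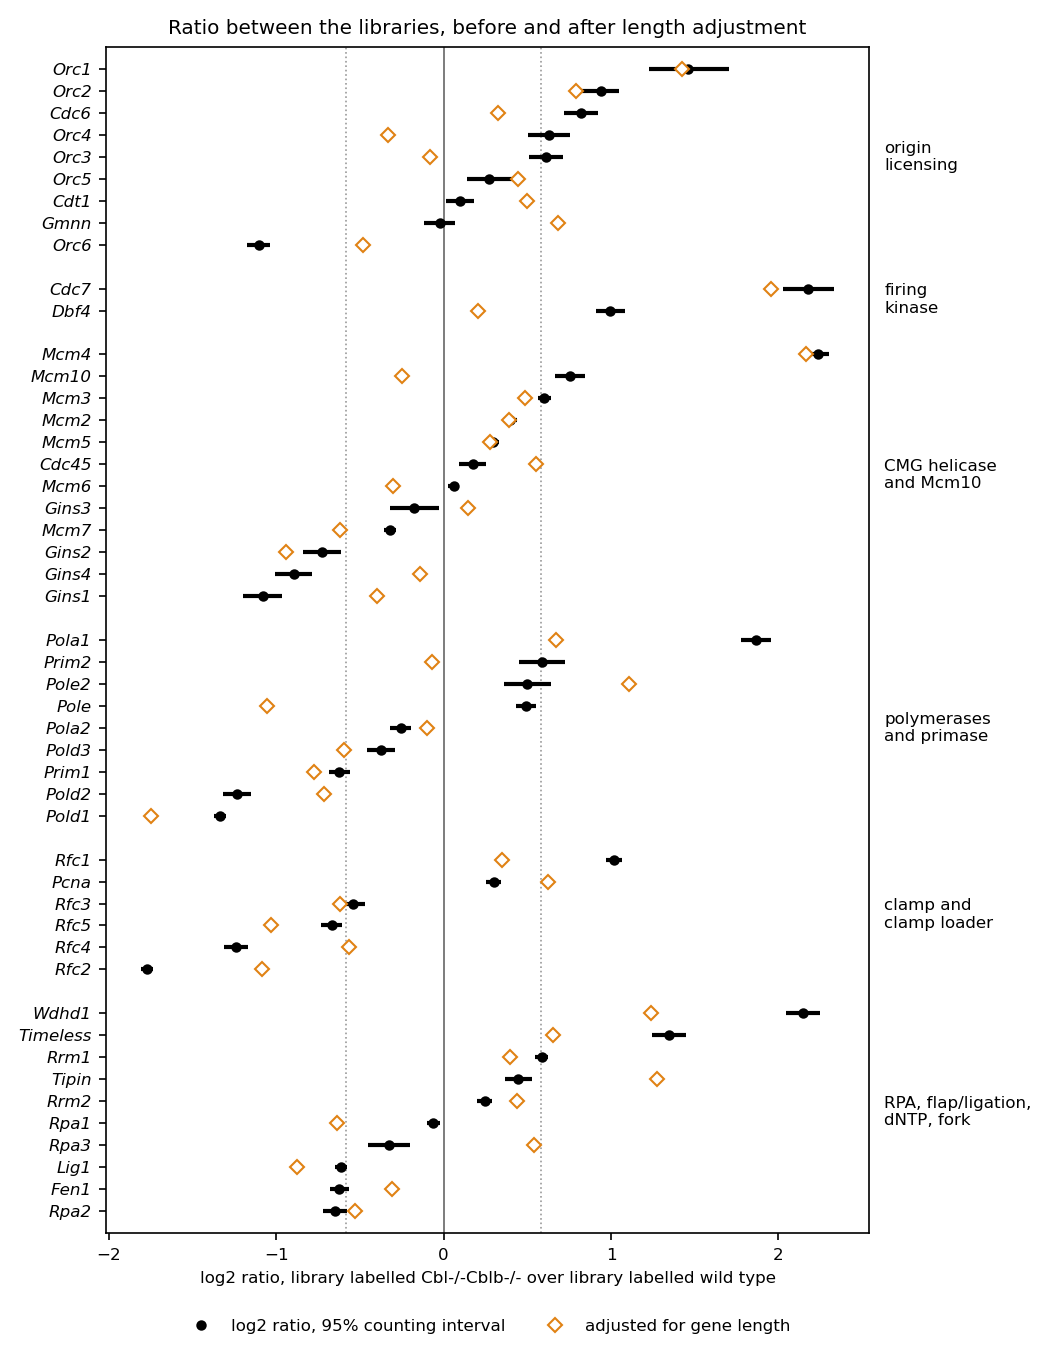
Log2 ratio of each replication gene (filled circle, bar for the 95% counting interval) and its value after adjustment for gene length (open diamond), with dotted lines at 1.5-fold. Mcm4, Cdc7 and Orc1 keep their place under the adjustment, of the genes past 1.5-fold Orc3, Orc4, Mcm10 and Prim2 cross 0, and Pold1 and Rfc2 stay beyond the lower line.

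Among the other fork genes Wdhd1, Timeless and Rrm1 were higher and Rpa2, Fen1 and Lig1 lower. That is 3 and 3 of 10, where 38.6% and 31.9% of all genes were, so both shares lay below the background. After length adjustment 3 were higher and 2 lower, where 28.7% and 33.5% of all genes were. Under total-read scaling Rpa2 (-0.13), Fen1 (-0.10) and Lig1 (-0.10) all come inside 1.5-fold on the log2 scale. Wdhd1 couples polymerase alpha to the helicase (ENSMUSG00000037572, chromosome 14, 47240944 to 47276857 on the minus strand). Reads for it numbered 7597 and 838, or 5310.1 and 1199 after normalization. It was 4.43-fold higher (4.12 to 4.76), next after Mcm4 and Cdc7, with a log2 ratio of 2.15 that stayed at 1.24 after length adjustment and 1.09 in the fuller fit. Timeless, a fork protection gene, had 3363 and 1322 normalized reads and was 2.54-fold higher (2.37 to 2.73), with an adjusted log2 ratio of 0.65. Its partner Tipin, a short gene, had 3428 and 2515 and a ratio of 1.36 (1.29 to 1.44), and stood at 1.28 once length was fitted. These 3 genes were the members of the group past 1.5-fold higher after adjustment, and in the fuller fit Tipin came just inside it at 0.58 while Timeless stood at 1.10.

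The strand-binding RPA genes were level or lower. Rpa1, the large subunit, had 11434 and 11930.3 normalized reads, Rpa2 2594 and 4065 and Rpa3 963 and 1209, with Rpa2 1.57-fold lower (1.49 to 1.65) and the other 2 within 1.5-fold. Fen1, the nuclease that trims the flap of each Okazaki fragment, had 4471 and 6883 normalized reads and was 1.54-fold lower (1.48 to 1.60). Lig1, which joins the fragments, had 10153 and 15547 and was 1.53-fold lower (1.49 to 1.57). Exons of Tmem258 (1136 and 4384 normalized reads) overlap Fen1 and exons of Zswim9 (252 and 187) overlap Lig1, on the opposite strand. After length adjustment Lig1 stayed lower at -0.87, as Rpa1 was at -0.64, whereas Fen1 stood at -0.31, Rpa2 at -0.53 and Rpa3 at 0.54. In the fuller fit Fen1 stood at -0.02. Ribonucleotide reductase, which makes the deoxynucleotides, was represented by Rrm1 with 13471 and 8979 normalized reads and Rrm2 with 9309.7 and 7851. Rrm1 reached the threshold at a ratio of 1.5 (1.46 to 1.54) and Rrm2 did not, at 1.19 (1.15 to 1.22).

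As a share of all assigned reads, the 48 genes held 0.956% (365554 reads, Wilson 95% interval 0.953 to 0.959) and 0.663% (177378 reads, 0.660 to 0.666). That share is taken over total reads. Under total-read scaling the median log2 ratio was 0.73 for members and 0.67 for all genes. Summed FPKM of the members went the other way, at 2250.1 and 2566. FPKM ratios of single genes follow the authors' size factors, and FPKM, unlike the read share, also divides reads by gene length. Of that sum Rfc2 alone made up 133 and 454. The 6 ring genes alone held 0.324% (0.323 to 0.326) and 0.178% (0.176 to 0.179) of reads. By the authors' deposited table, likewise made from 1 library per group, 0 of the 48 members had an unadjusted p under 0.05, against 2.66% of 19179 genes. That table's smallest unadjusted p among members was 0.0993, for Mcm4, and its adjusted p-values among members were all at least 0.944.

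Promoters were read to see what the members share upstream, and 4 are printed because their genes, among those matched, lie furthest from the length trend in each direction. RefSeq windows on GRCm38.p6, from 250 bases before to 50 after a transcript start, were matched for 39 of the 48 members (48 windows), all but Gins1, Gins2, Gins4, Gmnn, Mcm4, Pole, Prim2, Rfc2 and Tipin. In the lines that follow, each in its gene's own direction 5′ to 3′, capitals mark a match to an E2F word, here the word TTGGCGC, the word TTGCCGC, the word TTCGCGC or the word TTCCCGC on either strand. Cdc7 (chr5:106964072-106964371, plus strand) and Orc1 (chr4:108579204-108579503, plus strand) had the highest length-adjusted ratios among genes with a window, and Pold1 (chr7:44548766-44549065, minus strand) and Rfc5 (chr5:117388974-117389273, minus strand) the lowest.
Cdc7: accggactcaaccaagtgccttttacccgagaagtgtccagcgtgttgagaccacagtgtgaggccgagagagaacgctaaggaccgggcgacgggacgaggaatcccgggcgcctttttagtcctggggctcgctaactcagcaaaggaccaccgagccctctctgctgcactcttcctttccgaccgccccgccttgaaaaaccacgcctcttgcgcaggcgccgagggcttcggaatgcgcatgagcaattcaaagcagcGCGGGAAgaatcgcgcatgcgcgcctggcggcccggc
Orc1: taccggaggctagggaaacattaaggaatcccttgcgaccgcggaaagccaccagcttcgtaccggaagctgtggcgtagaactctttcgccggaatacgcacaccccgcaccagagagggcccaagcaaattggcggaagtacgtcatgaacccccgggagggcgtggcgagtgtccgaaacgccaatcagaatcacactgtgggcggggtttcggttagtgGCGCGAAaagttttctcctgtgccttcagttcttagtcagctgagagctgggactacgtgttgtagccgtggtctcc
Pold1: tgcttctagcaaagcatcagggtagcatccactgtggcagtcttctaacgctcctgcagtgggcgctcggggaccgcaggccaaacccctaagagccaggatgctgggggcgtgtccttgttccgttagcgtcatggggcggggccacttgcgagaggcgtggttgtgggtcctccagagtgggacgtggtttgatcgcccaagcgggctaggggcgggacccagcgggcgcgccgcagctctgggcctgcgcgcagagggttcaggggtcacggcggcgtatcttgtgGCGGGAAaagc
Rfc5: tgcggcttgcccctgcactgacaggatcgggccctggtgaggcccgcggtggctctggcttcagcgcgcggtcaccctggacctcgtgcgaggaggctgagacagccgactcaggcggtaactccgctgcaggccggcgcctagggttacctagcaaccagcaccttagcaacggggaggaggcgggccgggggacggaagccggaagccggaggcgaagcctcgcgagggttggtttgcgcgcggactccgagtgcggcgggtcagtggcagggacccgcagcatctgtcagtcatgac

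In these windows Cdc7, Orc1 and Pold1 each held 1 E2F word and Rfc5 held 0, so the word was found both above and below the trend. Counted from the RefSeq transcript start of each window, the matches began 14 and 40 bases into the transcript in Cdc7 and Pold1. In Orc1 the match began ahead of that start. For Orc1 and Pold1 this start differs from the GENCODE gene start given above, and the Orc1 match lies inside the gene as GENCODE places it. Over all member windows 60.4% held an E2F word (29 of 48), against 17.5% of the 9663 windows of genes over the floor and 9.57% of all 32851 windows. By gene, 26 of the 39 members had the word in a window. Their median log2 ratio was 0.17 (length-adjusted 0.21), beside 0.27 (0.21) for the 13 without it, Cdc45, Dbf4, Mcm10, Mcm2, Orc2, Orc5, Orc6, Pcna, Pola2, Pold2, Rfc5, Rpa1 and Timeless.

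Other words differed less from the background. CCAAT, the NF-Y word, was in 52.1% of member windows and 38.7% of windows of genes over the floor. GGGCGG, an Sp1 word that can overlap an E2F match, was in 70.8% and 64.4%. TTTGAA, the CHR word of genes that peak in mitosis, was in 16.7% and 12.1%. All were searched on both strands, and a match describes letters only.

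Further genes of the same pathway, 50 in a list beside the members, were spread more widely. All 50 passed the floor, 23 (46.0%) at least 1.5-fold higher and 14 (28.0%) lower, where 38.6% and 31.9% of all genes were, and 19 and 15 after length adjustment, where 28.7% and 33.5% were. Their median log2 ratio was 0.43 (length-adjusted 0.24). Atad5, which unloads the clamp, was the highest with 3672 and 303 normalized reads, 12.1-fold higher (10.6 to 14.0) and an adjusted log2 ratio of 2.62. Rif1, which sets when origins fire, had 4775 and 598 normalized reads and was 7.98-fold higher (7.23 to 8.83), 1.54 after adjustment. Dnmt1, which copies DNA methylation at the fork, had 27945 and 4743 and was 5.89-fold higher (5.69 to 6.11), with 1.82 after adjustment. Dck, the salvage kinase for deoxycytidine, had 12849 and 2311 and was 5.56-fold higher (5.28 to 5.85), with 2.56 after adjustment.

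At the lower end lay subunits of RNase H2, which removes ribonucleotides from new DNA. Rnaseh2c had 558 and 4846 normalized reads and was 8.69-fold lower (8.04 to 9.40), and Rnaseh2a had 998 and 5027 and was 5.04-fold lower (4.73 to 5.36). Their length-adjusted log2 ratios were -2.40 and -2.38, and Kat5 and Prdx2 exons overlap them. Dctpp1, a nucleotide pool pyrophosphatase of 676 bases, had 844 and 4615 and was 5.47-fold lower (5.12 to 5.85), or -1.35 on the log2 scale after adjustment. Pold4, the smallest subunit of polymerase delta, had 5989.5 and 23676 and was 3.95-fold lower (3.85 to 4.06), the same side as Pold1, Pold2 and Pold3, with an adjusted -1.0.

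Beside other cell cycle genes, the members had the lowest median. Mitotic genes numbered 30, of which 13 (43.3%) were higher and 4 (13.3%) lower where 38.6% and 31.9% of all genes were, and their median log2 ratio was 0.46 (length-adjusted 0.34). Of 19 E2F and G1/S regulators over the floor, from 20 listed, 12 (63.2%) were higher and 0 lower, beside those same shares of all genes, at a median of 1.15 (0.69). The members' 0.21 (0.04) can be set beside these only as a description of the 2 libraries, and no difference between the lists was tested.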

How the data were processed

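RNA from sorted splenic germinal centre B cells was purified on columns and sequenced from TruSeq libraries as paired reads of 50 bases, per the labels' protocols. TopHat2 2.0.10, featureCounts, DESeq2 1.4.5 and GRCm38 are named in the submitters' processing notes, without their roles. The strand setting and the annotation release are not given in the sources used.

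The signal columns and their base mean, deposited by the authors, hold reads per gene scaled by library size factors, per the file headers. All were whole multiples of the smallest positive value of their library (100% within 0.001 read), so reads were recovered with size factors of 1.43066 and 0.698976. FPKM, p-values, a test score and log2 fold changes with their errors also come from the authors' deposited table. The table's name refers to a human line, but its column names match these samples' titles without their prefix. The gene lengths are also deposited.

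Log2 ratios used normalized reads plus 1, over a floor of 100. Each group has 1 library, so no model was tested: a count model such as edgeR on the recovered reads would have no residual degrees of freedom. Higher or lower means past 1.5-fold. Ratios carry exact conditional 95% intervals, which cover counting error only, since reads have no molecular identifiers. The length adjustment is the residual of a linear fit on log2 length and its square over 10443 genes. A fuller fit added GC content of the longest transcript, its square and log2 model extension (exon length in GENCODE M21 over deposited length) for 10386 genes. Positions and overlaps came from GENCODE M21 on GRCm38. The fit and the intervals were tested on simulated data. Python 3.11.15, NumPy 2.4.6, pandas 2.3.3, SciPy 1.17.1 and Matplotlib 3.10.9 were used.

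Named genes were all members, Cbl and Cblb, the 4 highest and 4 lowest of the further replication genes, and cell type markers. Genes overlapping or neighbouring a member, and Pole3 and Pole4 of the further genes, were named after their values were seen. Members and lists were chosen with earlier results of these data known. Pclaf, Knl1, Jchain and Adgre1 were matched by Ensembl identifier and Ighd had no row. Protein sequences were not used here.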

Additional observations from a re-analysis of the deposited data

How the results depend on the processing

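Under total-read scaling the median log2 ratio of all genes moved up by 0.52, and under the total without immunoglobulin genes by 0.51. The former gave 26 members higher and 5 lower, median 0.73 (all genes 0.67), and the latter 26 and 5, median 0.72 (0.66). All genes then had 52.1% higher and 21.0% lower, or 51.9% and 21.2%. Further replication genes had 9 lower under both, with medians of 0.95 and 0.94. Centring on the median of all genes gave 11 members higher and 14 lower, where 34.6% and 35.6% of all genes were, and medians of 0.062 for members and 0.29 for the further genes. Length adjustment gave 0.036 and 0.24, and with GC content and model extension (the fuller fit) 9 members were higher and 15 lower and the medians were -0.24 and 0.081. At 2-fold, 7 members were higher and 6 lower, and 19 further genes higher and 9 lower, where 27.8% and 23.3% of all genes were. With a pseudocount of 10 the higher members were 14, since Prim2 and Rrm1 lie on the threshold, and a pseudocount of 0.1, a floor of 20 or no floor left all 6 counts and medians in place. Among members past 1.5-fold, signs turned for Orc3 (-0.080 with length, -0.61 in the fuller fit), Orc4 (-0.33, -0.90), Mcm10 (-0.25, -0.21) and Prim2 (-0.072, -0.40), and in the fuller fit for Dbf4 (-0.38) and Rrm1 (-0.28). Members inside 1.5-fold also turned, with length Gmnn, Mcm6, Gins3, Pole and Rpa3, and in the fuller fit Gmnn, Mcm6, Pole and Orc5. Both adjustments change the expected value of a gene by construction, and no further cause was tested. No paired analysis was possible because each group holds 1 library, which also prevents leaving out a replicate. Depth was not limiting, the fewest reads of a member being 170 (Orc1, in the library labelled wild type).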

Other observations

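Of the 48 members, 14 start within 1000 bases of a protein-coding gene on the opposite strand in a head-to-head layout or a short overlap, and all 14 neighbours passed the floor. The log2 ratios of member and neighbour had the same sign in 6 of the 14, and after length adjustment in 9. No matching share over all such gene pairs is given here, so these counts say nothing particular to the members. Wdhd1 and its neighbour Socs4, whose annotated starts lie 74 bases apart, stood at 2.15 and 2.04, and at 1.24 and 1.19 after adjustment. Mcm4 and Prkdc, the kinase gene of end joining whose start lies 466 bases away, stood at 2.23 and 1.61, but Prkdc is 13187 bases long and its adjusted value was -0.20 beside 2.17 for Mcm4. Orc6 and Vps35 went in opposite directions, at -1.11 and 1.83 (adjusted -0.48 and 1.89). Orc1 and Prpf38a, 87 bases apart, stood at 1.46 and -0.13 (1.42 and -0.65). These pairs are a description of 2 libraries, chosen after the values were seen.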
